A study of Mus musculus with 2 samples.

Results

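The smooth muscle contractile genes described here are Acta2, Cnn1, Tagln, Tpm2, Lmod1, Myh11, Myl9, Pln, Des and Mustn1, which are 10 of the 19059 genes in the deposited matrices. All 10 symbols were found in both libraries. The genes were picked because an earlier look at these counts had placed them near the top of the tomatidine over control ratios in endothelial-like cells, so their values in that class are a description and carry no interval for the ratio. Hippocampus of C57BL/6 wild-type mice (both sexes, 21 months old at the start) was compared after 3 months on control diet or on a diet with 0.05% tomatidine, a steroidal alkaloid of the tomato plant. Each group was 1 library made from the pooled tissue of 4 mice, so there was no replicate, no test between the groups and no p-value, and a difference between the mice, the dissections or the library preparations cannot be told apart from a difference between the diets. No genotype or other agent separated the groups as far as the labels and Methods state.

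Smooth muscle cells of arteries and arterioles contract when calcium drives the phosphorylation of myosin light chains, and the heads of smooth muscle myosin then pull on filaments of alpha smooth muscle actin. Tropomyosin, calponin, transgelin and leiomodin lie on or build these thin filaments, desmin joins them into a network through the cell, and phospholamban sets how fast the sarcoplasmic reticulum takes calcium back up. In brain vessels these genes mark arterial and arteriolar smooth muscle, pericytes of the capillaries hold little of most of them, and endothelial cells are known mainly for other genes. The genes are widely described as targets of serum response factor with its partner myocardin at a promoter element called the CArG box.

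The 10 genes lie on 8 chromosomes of mm10 (GRCm38, GENCODE annotation). Acta2 is at chr19:34241090-34255590 on the minus strand, Cnn1 at chr9:22099216-22109630 on the plus strand, Tagln at chr9:45929619-45936058 on the minus strand and Tpm2 at chr4:43514711-43523765 on the minus strand. Lmod1 lies at chr1:135324807-135368065 on the plus strand, Myh11 at chr16:14194535-14291372 on the minus strand and Myl9 at chr2:156775420-156781658 on the plus strand. Pln is at chr10:53337667-53345987, Des at chr1:75360329-75368579 and Mustn1 at chr14:30879200-30881610, each on the plus strand. Tagln overlaps Pcsk7 and Pln overlaps Cep85l on the opposite strand, and both partners were also measured. The 250 bases before the RefSeq start (GRCm38.p6) were at hand for 8 of the 10 genes, Tagln and Myh11 being without an entry in the table used. A CArG box was searched on both strands. Myl9 was the 1 gene of the 8 with an exact box, which 1.47% of 32851 promoter windows of the same length hold. With 1 letter allowed to differ, 3 of the 8 (Myl9, Acta2 and Lmod1) had a box, against 18.6% of all windows. The windows of Myl9 and Lmod1 are shown because each holds a pair of such boxes, in capitals. The Acta2 window overlaps an annotated first exon of the gene and is not shown. The Myl9 stretch runs from 200 to 51 bases before the start (chr2:156775264-156775413, plus strand) and the Lmod1 stretch from 220 to 121 bases before it (chr1:135324593-135324692, plus strand).
Myl9: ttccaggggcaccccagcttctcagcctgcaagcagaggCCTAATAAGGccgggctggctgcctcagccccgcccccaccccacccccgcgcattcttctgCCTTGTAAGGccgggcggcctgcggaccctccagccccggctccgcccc
Lmod1: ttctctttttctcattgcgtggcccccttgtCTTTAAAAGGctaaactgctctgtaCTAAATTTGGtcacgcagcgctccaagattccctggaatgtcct
The first box of Myl9, 161 to 152 bases before the start, is the exact one, and the other 3 boxes differ from the pattern by 1 letter. A match of letters is a description and not a measured binding site.

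The libraries held 279525565 UMIs (unique molecular identifiers, tags that mark single captured molecules) in 15912 control cells and 259059908 in 15185 tomatidine cells. The median depth of the 15115 and 14502 cells kept was 7078 and 7396 UMIs. Clusters were named from marker genes, and "-like" marks these rebuilt names, which are not the study's own. The endothelial-like class was 1 cluster of 287 control and 403 tomatidine cells in which all 9 measured endothelial markers were raised, among them Cldn5, Flt1 and Pecam1. All 11 mural markers were raised in the same cluster, so its endothelial name does not cover all the RNA in it. The mural-like class (39 and 43 cells) was led by Vtn, Atp13a5, Abcc9 and Notch3, a list made up mainly of pericyte genes, and the meningeal-like class (284 and 532 cells) by fibroblast genes such as Col1a1 and Slc6a13. The libraries shared 292 cell barcodes. Without these, the endothelial-like ratio described below was 1.11 on the log2 scale in place of 1.10.

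Summed over all kept cells, the 10 genes summed to 7310 control UMIs and 17289 tomatidine UMIs. This is 35.4 and 86.4 CPM (counts per 1000000 UMIs of the same cells), a ratio of 2.44. Of the 10 genes, 8 were at least 2-fold higher and 0 at least 2-fold lower, where 1.6% and 1.52% of the 15709 genes with at least 20 UMIs were. These sums include the endothelial-like cells by which the genes were chosen, so nothing is read from this count. Endothelial-like cells held 56.5% of the tomatidine library's contractile UMIs and mural-like cells 21.2%. All classes other than the endothelial-, mural- and meningeal-like together had 2395 and 2907 UMIs, or 11.88 and 15.01 CPM.

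Among the 14 named classes, mural-like and endothelial-like cells had the 2 highest levels of each of the 10 genes in either library. In the tomatidine library mural-like cells led for all 10, but 1 cell, described below, held 79.9% of their contractile UMIs. Without it Tagln was at 420 CPM in them against 433 in endothelial-like cells, and Cnn1 at 10.1 against 11.5. The rest stayed higher in mural-like cells. In the control library mural-like cells led for 6, and endothelial-like cells for Tagln, Lmod1, Myh11 and Pln. The control levels of these classes were close for some genes, such as Acta2 (155 and 127 CPM) and Tpm2 (150 and 140 CPM), and ependymal-like cells came next for Acta2 at 106 CPM. Oligodendrocyte-like cells, which should lack these genes, served as the background. The 10 genes together were at 9.13 CPM there without and at 17.1 CPM with tomatidine. At least 1 contractile UMI was found in 62.4% and 63.0% of endothelial-like cells (median depths 6549 and 4642 UMIs), against 5.38% and 6.83% of oligodendrocyte-like cells (5333 and 4906 UMIs). With each cell thinned to 1500 UMIs, the shares were 37.6% and 42.1% of 251 and 336 endothelial-like cells and 1.71% and 2.10% of 3010 and 2316 oligodendrocyte-like cells. The share of carrying cells was thus far above the background in either library and differed little between the libraries, while the UMIs they carried differed more.

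**Figure D1:**
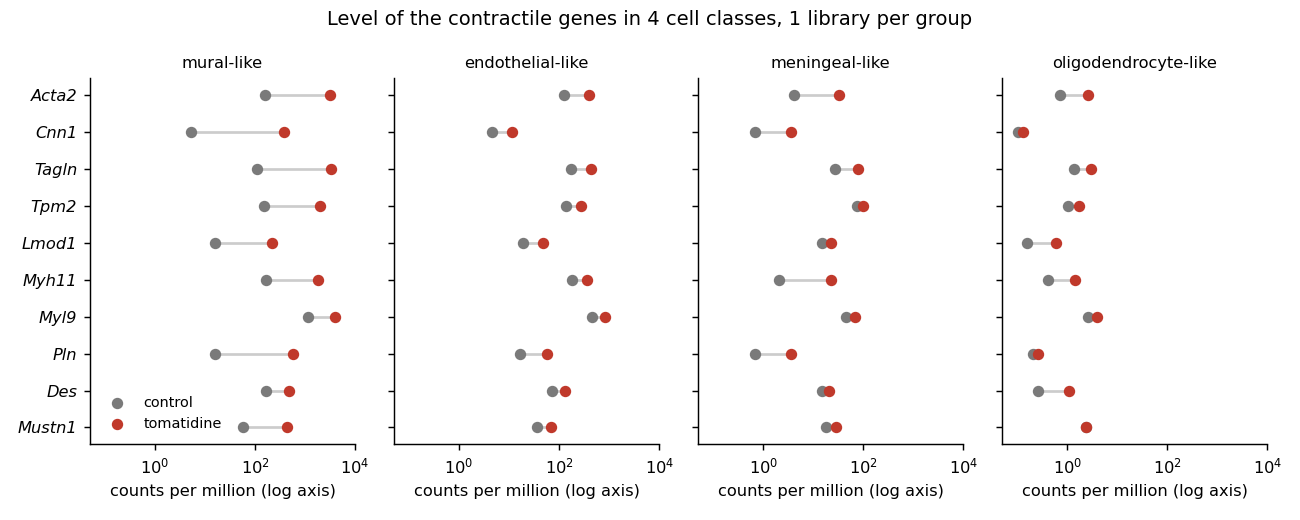
Level of each of the 10 genes in CPM (horizontal log axis) in mural-, endothelial-, meningeal- and oligodendrocyte-like cells, with 1 point for the control library (grey) and 1 for the tomatidine library (red) and no error bars, since each group is 1 library. All 10 points are higher for tomatidine in the first 3 classes, with the widest gaps in mural-like cells, and the oligodendrocyte-like levels stay under 4 CPM.

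In endothelial-like cells the sum of the 10 genes went from 4241 UMIs (1222 CPM) to 9769 UMIs (2620 CPM), a log2 ratio of 1.10, and each gene was higher with tomatidine. Of the 10, 6 were at least 2-fold higher and 0 at least 2-fold lower. Among 12508 genes, 1.26% were 2-fold higher and 0.983% lower, and nothing is read from this, because the genes were chosen by this contrast. Their median log2 ratio was 1.18, and that of all genes 0.02.

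Among the thin filament genes, Acta2, alpha smooth muscle actin, had 440 UMIs in 20 control cells and 1494 UMIs in 40 tomatidine cells, or 127 and 401 CPM (log2 ratio 1.66). Tagln, the actin-binding protein transgelin, had 597 UMIs in 20 cells and 1613 in 56 (172 and 433 CPM, log2 ratio 1.33). Cnn1, calponin, was sparse, with 16 UMIs in 3 control cells and 43 in 11 tomatidine cells (log2 ratio 1.32). These 3 genes were carried by few cells in either library, and by more cells with tomatidine. Lmod1, leiomodin, which nucleates actin filaments, went from 66 UMIs in 15 cells to 181 in 37 (19.0 and 48.5 CPM, log2 ratio 1.35). Tpm2, a tropomyosin that also occurs outside smooth muscle, was spread over 73 and 92 cells with 486 and 1020 UMIs (140 and 274 CPM, log2 ratio 0.97). As shares of the class, these carriers were 25.4% and 22.8%.

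For the myosin subunits, Myh11, the smooth muscle heavy chain, had 615 UMIs in 76 control cells and 1364 in 115 tomatidine cells (177 and 366 CPM, log2 ratio 1.05). Myl9, the regulatory light chain whose phosphorylation starts contraction, was the most widely carried gene, with 1589 UMIs in 135 cells and 3111 in 197 (458 and 834 CPM, log2 ratio 0.87). As shares of the class, 47.0% and 48.9% of cells carried Myl9, compared with 1.47% and 1.68% of oligodendrocyte-like cells. The share of carriers was therefore close in the libraries, although the summed level was not.

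Pln, phospholamban, the inhibitor of the calcium pump of the sarcoplasmic reticulum, had the largest ratio of the 10, from 56 UMIs in 10 cells to 211 in 20 (16.1 and 56.6 CPM, log2 ratio 1.81). Des, desmin, had the smallest, from 249 UMIs in 87 cells to 478 in 119 (71.7 and 128 CPM, log2 ratio 0.84). Mustn1, a small nuclear protein named after musculoskeletal tissue, went from 127 UMIs in 47 cells to 254 in 64 (36.6 and 68.1 CPM, log2 ratio 0.90). Carriers of Des were 30.3% and 29.5% of the class, and those of Mustn1 16.4% and 15.9%. Among the 10203 genes with at least 100 UMIs in these cells, 9 of the 10 ranked between 2 (Pln) and 46 (Des) by ratio, and Cnn1 fell short of that number of UMIs. Des, at a log2 ratio of 0.84, stood just below Iigp1 and Rmnd1 and just above Ctnna3 and Vsig2, all of which had values between 0.83 and 0.84 at 2 decimals.

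A few cells held most of these UMIs in each library. The median endothelial-like cell had 1 contractile UMI in either library. In the control library 5 cells held 50% of the sum, and in the tomatidine library 6 cells did. The 10 richest cells had 65.0% and 66.4%. The richest control cell had 818 contractile UMIs of its 16792 UMIs, with all 10 genes detected. The richest tomatidine cell had 1475 of 39014, also with all 10. Cells with at least 100 contractile UMIs numbered 8 in the control library (2627 UMIs) and 16 in the tomatidine library (7440 UMIs). The share of the 10 richest cells was thus about alike in the libraries. Cells with at least 100 contractile UMIs held 61.9% of the control and 76.2% of the tomatidine sum. How many rich cells there were and how much each held differed as well.

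The genes came together in the same cells. Of the 60 endothelial-like cells with Acta2, 57 also had Myl9, 52 Tpm2, 51 Myh11 and 50 Tagln. At least 3 of the 10 genes were found in 73 control cells (25.4%, exact binomial interval 20.5 to 30.9%) and 109 tomatidine cells (27.0%, 22.8 to 31.7%). The shares were 1.61 points apart. In oligodendrocyte-like cells they were 0 of 3065 cells, which at a floor of 3 counts allows up to 0.0979%, and 3 of 2387 (0.126%). Thinned to 1500 UMIs, the endothelial-like shares were 6.14% and 9.02%. At least 8 of the 10 genes were found in 8 control cells (2.79%) and 22 tomatidine cells (5.46%). Those 8 cells held 2515 UMIs and those 22 cells 7651. Leaving out all cells with 8 or more of the genes lowered the log2 ratio of the sum from 1.10 to 0.29. Leaving out the 10 richest cells of each library kept it at 1.01. Intervals here and below are at 95%, compare these libraries and not the diets, and cover counting error only, and UMIs that sit in few cells make them too narrow.

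**Figure D2:**
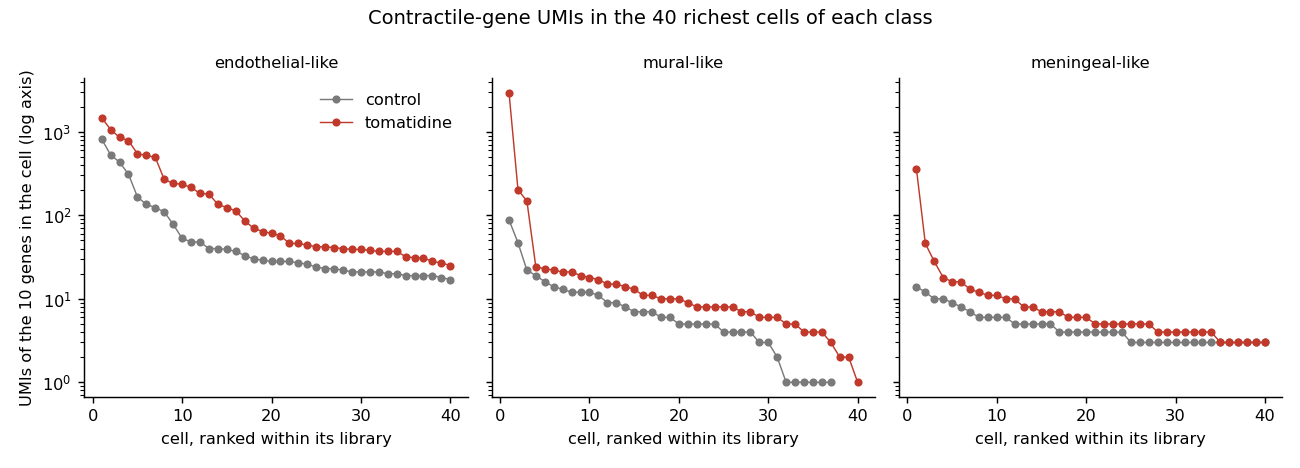
UMIs of the 10 genes (vertical log axis) in each of the 40 richest cells of the endothelial-, mural- and meningeal-like classes, ranked within their library (control grey, tomatidine red). Each point is 1 cell, and cells without a contractile UMI are not drawn. The endothelial-like curves run apart along their length, while in the other 2 classes a tomatidine cell with 2926 and a tomatidine cell with 363 UMIs stand far above the rest.

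The ratio in endothelial-like cells differed with how much was detected in a cell, and not in 1 direction. The study's Methods give, beside the filter used here, a second one that removes cells with more than 6000 genes. In cells with at most 6000 genes the 10 genes had 2083 UMIs in 227 control cells and 2833 in 335 tomatidine cells, or 1543 and 1624 CPM, a log2 ratio of 0.07. In cells with over 6000 genes they had 2158 UMIs in 60 control cells and 6936 in 68 tomatidine cells, or 1018 and 3496 CPM, a log2 ratio of 1.78. These cells held 50.9% of the contractile UMIs of the class in the control and 71.0% in the tomatidine library. The shallowest cells also had a high ratio. Cells under 1500 UMIs had 38 contractile UMIs in 36 control cells and 445 in 67 tomatidine cells, or 985 and 6391 CPM, a log2 ratio of 2.70, and 0 and 5 of them had 8 or more of the genes. In the cells between, with 1500 or more UMIs and at most 6000 genes, the ratio was −0.13 (2045 and 2388 UMIs in 191 and 268 cells). Per gene, the log2 ratios ran from −0.18 (Myh11) to 0.51 (Mustn1) below this limit and from 1.17 (Mustn1) to 2.90 (Cnn1) above it. Acta2 was at 184 and 197 CPM in the cells with fewer genes and at 90.6 and 580 CPM in those with more. When both filters were applied before clustering, the log2 ratio of the sum in the endothelial-like class was 0.35. Thinning each cell to 1500 UMIs gave 0.40. This is another measure than the summed counts, because it weighs all cells alike whatever their depth. It also leaves out the cells under 1500 UMIs, where the ratio was high. Median doublet scores were 0.019 and 0.021 in cells with 8 or more of the genes, 0.027 and 0.025 in cells with at least 3, and 0.027 and 0.022 in cells with under 3. The caller marked 0 cells in either library, so it is no measure of doublets here, and their part in the ratio was not tested.

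**Figure D3:**
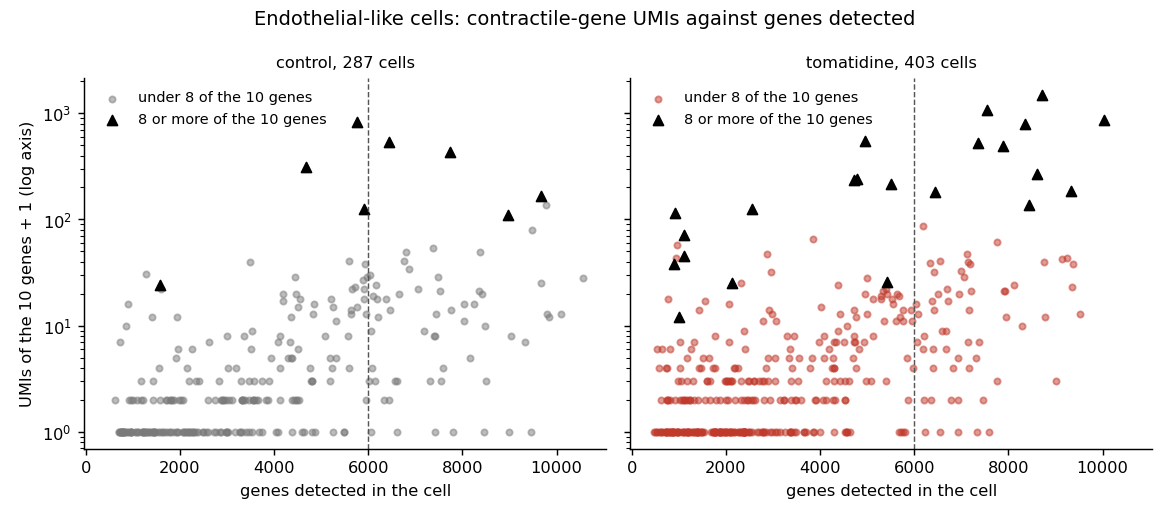
UMIs of the 10 genes plus 1 (vertical log axis) against the number of genes detected (horizontal axis) in each endothelial-like cell of the control library (left, 287 cells) and the tomatidine library (right, 403 cells). Black triangles are cells with 8 or more of the 10 genes, and the dashed line is at 6000 genes. To the right of the line 4 control and 10 tomatidine cells have 8 or more of the genes, and to the left 4 and 12.

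**Figure D4:**
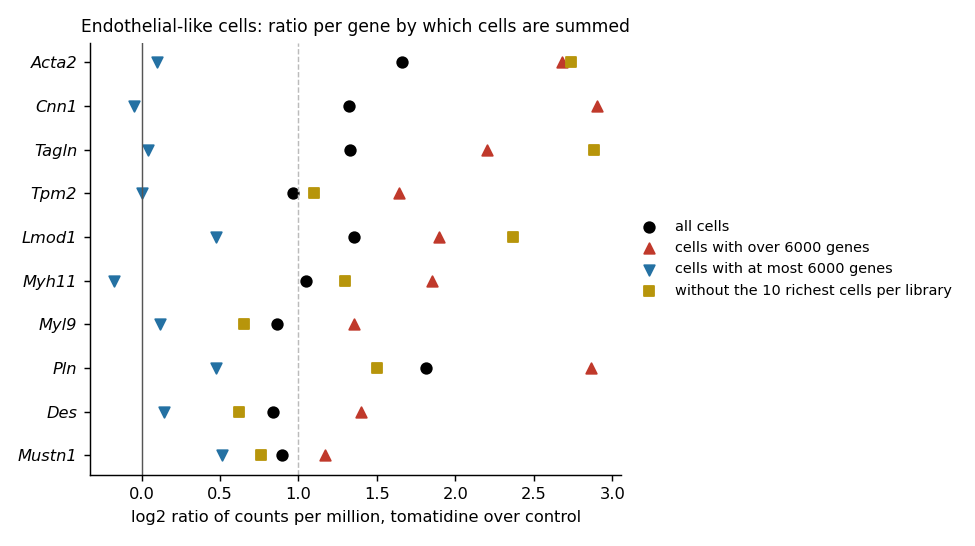
The log2 ratio of each gene's CPM in endothelial-like cells, tomatidine over control (horizontal axis, solid line at 0, dashed line at 1, a 2-fold difference), from all cells (black circles), cells with over 6000 genes (red), cells with at most 6000 genes (blue) and all but the 10 richest cells of each library (yellow squares). The blue points lie between −0.18 and 0.51 and the red ones between 1.17 and 2.90. Cnn1 has no yellow square because no control UMI was left.

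Most cells rich in the genes carried both endothelial and mural markers, as did many other cells of the class, and some rich cells carried almost none of either. In the endothelial-like cells with 8 or more of the genes, summed endothelial markers were at 8520 CPM in the control and 7402 CPM in the tomatidine library, and summed mural markers at 9311 and 7262 CPM. At least 5 UMIs of both lists were present in 7 of the 8 control and 15 of the 22 tomatidine cells. In 1 control and 6 tomatidine cells neither list reached 5 UMIs. Those 6 cells were shallow, with 1148 to 4320 UMIs, and held 399 contractile UMIs. The 2 richest tomatidine cells had 270 and 272 UMIs of endothelial markers against 42 and 33 of mural markers, so the sums hide differences between cells. In cells with under 3 of the genes, mural markers were lower, at 4152 and 4118 CPM, while endothelial markers were similar, at 8600 and 9519 CPM. In cells with 3 to 4 of the genes mural markers were higher than in the rich cells, at 10687 and 11185 CPM. At least 5 UMIs of both lists were present in 41 of 43 control and 55 of 66 tomatidine cells with 3 to 4 of the genes. Among the shallower cells with under 3, they were present in 126 of 214 and 147 of 294. Over the whole class, the 9 endothelial markers summed to 8331 and 9324 CPM and the 11 mural markers to 6561 and 7003 CPM, with none at 0. Splitting the class by markers gave the same direction. The contractile genes were at 1183 and 2825 CPM in cells with more endothelial than mural marker UMIs, and at 1298 and 2266 CPM in the others. Whether mixed droplets account for this was not tested.

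Mural-like cells had the largest ratio of the sum, from 380 UMIs in 39 control cells (1964 CPM) to 3663 UMIs in 43 tomatidine cells (16288 CPM), a log2 ratio of 3.05 (2.90 to 3.21). All 10 genes were at least 2-fold higher, where 6.3% of the 5901 genes tested in this small class were, and 6.51% were 2-fold lower. Cnn1, Lmod1, Pln and Mustn1, with 1, 3, 3 and 11 control UMIs, reached the required 20 UMIs only through the tomatidine library. Nothing is therefore read from this count. Most of the sum lay in 1 tomatidine cell, which held 2926 of the 3663 UMIs (79.9%). That cell had 27430 UMIs, of which 602 were Acta2, 668 Tagln, 566 Myl9, 370 Tpm2, 343 Myh11, 99 Pln, 85 Cnn1, 79 Des, 77 Mustn1 and 37 Lmod1. It had 28 UMIs of mural markers and 1 of endothelial markers. Across the 4 tomatidine mural-like cells with 8 or more of the genes, mural markers were at 1579 CPM, against 32086 CPM in those with under 3. These cells thus held the contractile genes with little of the pericyte genes that named the class.

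Without that cell, the tomatidine mural-like cells were at 3732 CPM, against 1964 CPM in all control ones. With the richest cell of each library left out, the log2 ratio of the sum was 1.28, and without the 3 richest of each it was 0.72. Per gene, with only that tomatidine cell left out, Acta2 had 30 control and 95 tomatidine UMIs (log2 ratio 1.63, 1.03 to 2.28) and Tagln 21 and 83 (1.95, 1.25 to 2.72). Pln had 3 and 29 (3.24, 1.55 to 5.60), and its 3 control UMIs were all in 1 cell. Myl9, which 32 of 39 control and 41 of 43 tomatidine cells carried, had 218 and 321 UMIs (0.53, 0.28 to 0.78). For Des the ratio turned, with 32 and 27 UMIs (−0.27, −1.07 to 0.51). The intervals of Cnn1, Des and Mustn1 spanned 0 without this cell, and the other 7 did not.

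In meningeal-like cells the sum went from 294 UMIs in 284 cells (204 CPM) to 950 in 532 cells (376 CPM), a log2 ratio of 0.88 (0.69 to 1.08). Of the 8 genes with at least 20 UMIs, 3 (Acta2, Tagln and Myh11) were 2-fold higher and 0 lower, beside 1.23% and 1.51% of 11988 genes. Acta2 and Myh11, with 6 and 3 control UMIs, reached the 20 UMIs only through the tomatidine library, so nothing is read from this count. Here too 1 tomatidine cell held 363 UMIs (38.2%) of its 3690, with all 10 genes, 3 meningeal and 0 endothelial marker UMIs. With the richest cell of each library left out, the log2 ratio of the sum was 0.24. With only that tomatidine cell left out, the intervals of 9 of the 10 genes spanned 0. Acta2 was the exception, with 6 and 33 UMIs (1.65, 0.38 to 3.20). Tpm2 was the most widely carried member of the set in these cells, in 60 control and 126 tomatidine cells, with 107 and 244 UMIs.

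Single cells of the same kind lay outside the vessel classes. Cells with 8 or more of the 10 genes numbered 10 in the control and 31 in the tomatidine library, and they held 36.3% and 67.3% of all contractile UMIs of their library. In the control library all 10 were endothelial- or mural-like. In the tomatidine library 26 were, and the others were 2 meningeal-like, 1 astrocyte-like, 1 oligodendrocyte-like and 1 unnamed cell. The astrocyte-like cell had 148 contractile UMIs of 17092 with all 10 genes, beside 307 UMIs of astrocyte markers, and the oligodendrocyte-like cell had 68 of 7429. Other high values came from single genes. In T or NK cell-like cells Myl9 had 40 UMIs in 4 control cells, 23 of them in 1 cell, and 13 UMIs in the tomatidine library.

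Other genes of the contractile apparatus were followed in the same cells. Of 25 further contractile genes that reached 20 UMIs in the endothelial-like class, 23 were higher with tomatidine, and 1, the Z-disc and filament-anchoring gene Pdlim3, was at least 2-fold higher (18 and 71 UMIs, log2 ratio 1.88). The median log2 ratio was 0.48, against 0.02 for all genes, of which 1.26% were at least 2-fold higher. In endothelial-like cells with under 3 of the 10 genes, the further genes summed to 3091 CPM in the control and 3305 CPM in the tomatidine library. In those with 3 or more they summed to 4957 and 7158 CPM, so most of the difference lay there. Tpm1, a tropomyosin and the gene with most UMIs in this list, had 1535 and 2293 (0.48), and Mylk, the kinase that phosphorylates myosin light chains, 814 and 1321 (0.59). In mural-like cells 17 of 24 were at least 2-fold higher and 1, Nrip2, lower, beside 6.3% and 6.51% of all genes tested there, with a median of 1.56. Among the 17, Actg2, Synpo2, Pdlim3, Csrp2, Ldb3, Hspb1 and Ppp1r12b had under 20 control UMIs and were tested only through the tomatidine library. Few cells carried the higher level of this list. The list summed to 4846 and 4989 CPM in the 28 control and 28 tomatidine mural-like cells with under 3 of the 10 genes, and to 57128 CPM in the 4 tomatidine cells with 8 or more. Flna had most UMIs there (113 and 584), and Actg2, the enteric smooth muscle actin, went from 0 to 55 UMIs, at least 15.8-fold higher against a floor of 3 counts.

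Among paralogs, most of them used outside smooth muscle, none of 12 was 2-fold higher or lower in endothelial-like cells, and their median was 0.03. Of all 12508 genes tested in this class, 1.26% were at least 2-fold higher and 0.983% lower. Tpm1 belongs to the paralogs as well as to the preceding list and had the highest ratio of the paralogs (0.48), and Myh14 the lowest (−0.39). Actg1, a cytoplasmic actin, had 1737 and 2033 UMIs (0.12), Myh9, a non-muscle myosin, 685 and 747 (0.02), and Tagln2 1263 and 1428 (0.07). Of 9 factors that control smooth muscle genes, 1 was 2-fold higher, Myocd, which encodes myocardin (15 and 35 UMIs, 1.12). All 50 UMIs of Myocd lay in cells with at least 3 of the 10 genes, so its ratio follows those cells. Srf, serum response factor, had 302 and 369 UMIs (0.19) and Mrtfb 1076 and 1151 (−0.01). Among 12 calcium handling and channel genes 1, the junctional gene Jph2, was 2-fold higher (26 and 73 UMIs, 1.39), while Atp2a2, the pump that phospholamban inhibits, was at a ratio near 1 (1855 and 2030 UMIs, 0.03). None of 10 receptor and relaxation genes passed 2-fold, with Pde3a the highest (76 and 132 UMIs, 0.69) and Rhoa at −0.07.

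Genes tied to the cells that held the contractile set were sought in endothelial-like cells of both libraries. In cells with at least 3 of the 10 genes, 12 other genes had at least 20 UMIs and the remaining cells had none. These were Gpr20, Olfr558, Myocd, Adamts14, Ccl12, Ephx3, Slc4a1, Mrgprh, Hspb7, Mrgprf, Xirp1 and Fcmr, led by Gpr20 with 63 UMIs (at least 20.99-fold higher) and by Olfr558 and Myocd with 50 each. Next came Jph2 (98 UMIs against 1), Map3k7cl (154 against 2), Aoc3 (119 against 2), Olfr78 (69 against 2), Pdlim3 (86 against 3) and Myom1 (129 against 6), then Wfdc17, Ly6d, Slc47a2 and Asb2. Cells with at least 3 of the genes were deeper, with medians of 17209 and 13494 UMIs against 4806 and 3648.5, and the lists follow depth as well. Over 30 profiles (the 14 named classes and the unnamed cells in each library), the genes whose level was most like that of the summed set were Mylk (Pearson r of log2(CPM + 1) 0.92), Prxl2c (0.90), Rem1 (0.90), Hrct1 (0.90) and Rras (0.89). The profiles share libraries and differ in depth, so the correlations describe these data.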

How the data were processed

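Single cells of hippocampus were profiled with a probe-based fixed RNA kit, 1 library per group. The files deposited by the authors hold raw UMI counts for each gene in each cell, from an alignment to mm10. The processing notes name Cell Ranger 8.0.0 and the file headers cellranger 7.1.0. Following the study's Methods, cells had to have 500 UMIs or more, more than 250 genes, log10 genes divided by log10 UMIs over 0.8, and less than 20% of UMIs from mitochondrial genes. Scrublet (scanpy 1.11.5) called 0 cells (0%) as doublets, so the 2% of cells with the highest score were removed per library, which left 29617 of 31097 cells. Seurat 5.3.0 (R 4.3.3) served for RPCA integration and clustering, with 72 genes left out. These were the 10 genes, sex-linked genes, and the further contractile, control factor, calcium and channel, and receptor and relaxation lists. The paralog and vessel segment lists stayed in, apart from genes they share with those lists.

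Of 36 clusters, 22 were named from 16 marker lists. A name needed that class to lead alone among the 10 genes with the highest fold, the highest share of raised markers of all classes and at least 3 raised markers. This rule was settled after the clusters were seen. The 10 genes and all lists were chosen with earlier results of these data known, and are no independent support. CPM ratios were computed from summed counts, with exact Poisson, Clopper-Pearson and conditional binomial intervals. Named beside the 10 genes are list genes past 2-fold and the one with most UMIs, the 5 genes most alike over classes, the 10 genes highest in cells with at least 3 of the set (and those with no UMI elsewhere), and the neighbours of the lowest rank. The calculations were tested on simulated data. The alternatives covered filters, doublets, integration, resolution, a marker gate, thinning, scaling (TMM, edgeR 4.0.16) and cells left out. Intervals came from scipy 1.17.1 and plots from matplotlib 3.10.9 (Python 3.11.15, pandas 2.3.3, numpy 2.4.6). Promoter sequences came from RefSeq and coordinates from GENCODE M21.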

Additional observations from a re-analysis of the deposited data

Results flagged for a closer look

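The summed 10 genes went the other way in T or NK cell-like cells than in endothelial-like cells. They had 46 UMIs in 56 control cells and 17 in 35 tomatidine cells, 277 and 112 CPM, a log2 ratio of −1.31 (−2.20 to −0.48), against 1.10 in endothelial-like cells. Most were Myl9 UMIs (40 and 13), of which 23 lay in 1 control cell. With 1 library per group the difference between the classes was not tested.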

How the results depend on the processing

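Counting error, 1 library per group and few contractile-rich cells limit these values. No paired analysis was possible because each group is 1 pooled library and no test was made. At 0.3 resolution, without integration and without doublet removal no cluster was named mural-like, so those settings give no mural-like value. The mean per cell and thinning gave no count of genes past 2-fold. Leaving out the 10 richest cells, leaving out cells with 8 or more of the genes and the share of cells with 8 or more were chosen after seeing the data, as were the splits of cells by genes and UMIs.

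The endothelial-like log2 ratio of the sum (1.10) was 1.25 without a cell filter, 0.35 with both filters of the Methods, 1.42 without doublet removal, 1.28 with the top 5% of doublet scores removed, 1.46 without integration, 1.47 at resolution 0.3, 1.501 with no gene left out of the clustering and 0.94 under the marker gate. It was 0.94 as a mean of the cells' CPM, 0.40 thinned to 1500 UMIs, 1.25 without the 5 and 1.01 without the 10 richest cells, 1.26 in cells with more endothelial than mural markers, and 0.29 without cells with 8 or more of the genes. It stayed above 0 in all of these, and moved little with TMM factors (1.08) and at resolution 1.5 (1.09). Nothing is read from its sign, because the genes were chosen by this contrast. In the cells with 1500 or more UMIs and at most 6000 genes it was −0.13. The cause of these differences was not tested.

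The mural-like ratio (3.05) was 0.39 with both filters, 0.24 with no gene left out, 0.85 under the gate, 1.43 as a mean per cell, 1.39 thinned, 0.79 without the 5 and 0.80 without the 10 richest cells, and 0.59 without cells with 8 or more of the genes. The meningeal-like ratio (0.88) was 1.10 as a mean per cell. It was smaller with several settings, at 0.052 with both filters, 0.013 without doublet removal, 0.17 without integration, 0.18 at resolution 0.3 and 0.19 with no gene left out. It was also smaller at 0.15 without the 5 and 0.15 without the 10 richest cells and 0.073 without cells with 8 or more of the genes. It turned to −0.090 without a cell filter and to −0.080 under the gate.

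The control share of the UMIs in the 10 richest endothelial-like cells (65.0%) was 70.9% with both filters, 61.0% without doublet removal, 60.4% without integration and 60.4% at resolution 0.3, 63.2% with no gene left out, 92.3% under the gate, 62.7% thinned, 83.7% in cells with more endothelial markers, and 36.1%, 25.1% and 31.9% once the 5 richest, the 10 richest or the cells with 8 or more of the genes were left out. The tomatidine share (66.4%) was 64.3% with both filters, 67.4% without integration and 67.4% at resolution 0.3, 68.8% with no gene left out, 92.4% under the gate, 52.2% thinned, 87.9% with more endothelial markers, and 51.6%, 37.6% and 24.8% in the same 3 cases. The difference in cells with at least 3 of the genes (1.61 points) ran from −0.92 points under the gate to 2.99 points with both filters, and was 2.67 points for at least 8 of the genes. The 158 genes past 2-fold became 303 under the gate, 961 when genes with at least 1 UMI were tested in place of 20, and 24 with at least 100 UMIs.

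Single genes turned direction in the small classes. In mural-like cells Des was −0.85 with both filters, −0.54 with no gene left out, −0.54 without the 5 and −0.028 without the 10 richest cells and −0.48 without cells with 8 or more of the genes. With no gene left out Acta2 was −2.32 and Tpm2 −0.28, and without the 10 richest cells Mustn1 was −0.13. In meningeal-like cells Pln was −1.64 without a cell filter, −0.23 with both filters, −1.77 without doublet removal, −0.79 without integration, −0.81 at resolution 0.3 and −0.75 with no gene left out. Myh11 was −0.37 without a cell filter, −0.53 without doublet removal, −1.25 under the gate and −0.86 without the 10 richest cells. Tagln was −0.12 without a cell filter and −0.43 under the gate, and Cnn1 −0.69 under the gate and −0.86 without the 10 richest cells. Of 157 values of single genes in endothelial-like cells 156 stayed above 0, the exception being Mustn1 at −0.24 without cells with 8 or more of the genes. Nothing is read from this count, because the genes were chosen by this contrast. The split at 6000 genes is not among these values. In cells with at most 6000 genes Myh11 was at −0.18 and Cnn1 at −0.05.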

Other observations

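Genes of vessel segments were read in the endothelial-like cells of both libraries. Of 10 arterial endothelial genes, 8 were higher with tomatidine and 3 at least 2-fold, with a median log2 ratio of 0.61, where 1.26% of all 12508 genes tested were at least 2-fold higher. The 3 were Gja5, an arterial gap junction gene (6 and 24 UMIs, 1.90), Fbln5, a gene of elastic fibres (58 and 168 UMIs, 1.43), and Gkn3 (190 and 477 UMIs, 1.22). Mgp, which inhibits calcification and had most UMIs of this list, had 979 and 1774 (0.75). Other arterial genes were nearer to 0, with Gja4 at 0.28, Hey1 at −0.0098 and Efnb2 at −0.026. Part of the list was not particular to endothelial-like cells. Mgp was at 282 and 476 CPM there, but at 522 and 725 in mural-like and 1117 and 890 in meningeal-like cells. Fbln5 (16.7 and 45.1 CPM) and Efnb2 (73.2 and 71.9) were higher in meningeal-like cells, at 121 and 119 and at 126 and 134. Gja4 (79.5 and 96.8 CPM) was at 558 and 520 in mural-like cells. The 6 capillary genes had a median of −0.03, with none past 2-fold. Of 6 venous genes 1 was past 2-fold, the adhesion gene Icam1 (1.13), and Lcn2 was at −0.95.

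In all kept cells, Actg2 was the paralog with the largest ratio (6 and 69 UMIs, 3.57), and 55 of its 69 tomatidine UMIs lay in mural-like cells. Sln, an inhibitor of the same calcium pump as phospholamban, had the lowest (516 and 219 UMIs, −1.19).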
